A study of Homo sapiens with 6 samples.

Results

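The genes described here are 6 matrix metalloproteinases (MMP1, MMP2, MMP14, MMP15, MMP16 and MMP17), the membrane protease ADAM10 and 3 tissue inhibitors of metalloproteinases (TIMP1, TIMP2 and TIMP3). They were taken by symbol from a table of 17468 genes. All 10 were found, and all 10 passed the filter on low values, an average of 1 FPKM or more, as did 11129 genes in all. RNA was sequenced from Colo800 and A375, both human melanoma cell lines, grown in serum-containing medium and infected with a virus carrying the ETV1-sh2 hairpin, the ETV1-sh1 hairpin or a Scrambled hairpin. ETV1 is the ETS-family transcription factor that the first 2 hairpins target, and RNA was taken 4 days after infection. There was 1 library for each line and hairpin, hence 6 in all, and the sources used here do not say whether a library pools the duplicate infections that the series' design names.

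The labels also carry a treatment field that the design text does not mention. It gives 5 nM trametinib (a MEK inhibitor) for the ETV1-sh2 samples, DMSO for the ETV1-sh1 samples and 1 uM vemurafinib (the BRAF inhibitor vemurafenib) for the Scrambled samples, and a protocol of siRNA for 48 hours followed by drug for 8 hours. If that field holds, each drug goes with 1 hairpin in both lines, and drug and hairpin cannot be told apart in any value below. In bulk samples, fewer cells of a type and less RNA per cell cannot be told apart either.

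Matrix metalloproteinases are zinc proteases that cut collagens and other proteins of the extracellular matrix. MMP1 is an interstitial collagenase and MMP2 a gelatinase, and both are secreted as inactive precursors. MMP14, MMP15 and MMP16 are held in the membrane by a transmembrane segment and MMP17 by a lipid anchor, and MMP14 activates the MMP2 precursor together with TIMP2. ADAM10 is a sheddase, which releases the outer parts of membrane proteins such as Notch and N-cadherin. The TIMPs bind the active site of these proteases. TIMP3 stays bound to the matrix and also inhibits ADAM proteases. TIMP1 is a poor inhibitor of the MMPs with a transmembrane segment. In melanoma these enzymes are known for their part in invasion.

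TIMP3, ADAM10, MMP15 and MMP16 had lower values than Scrambled of the same line in every ETV1 hairpin library. Promoters of TIMP3, ADAM10 and MMP15 are shown because ETV1 binds DNA through an ETS domain that recognises GGAA. That of MMP16 was not among the promoters used here. The sequences are the 250 bases before the RefSeq start of each gene in GRCh38.p14, at chr22:32801455-32801704 (plus strand) for TIMP3, chr15:58749708-58749957 (minus strand) for ADAM10 and chr16:58025504-58025753 (plus strand) for MMP15. Capitals mark GGAA and its reverse TTCC.
TIMP3: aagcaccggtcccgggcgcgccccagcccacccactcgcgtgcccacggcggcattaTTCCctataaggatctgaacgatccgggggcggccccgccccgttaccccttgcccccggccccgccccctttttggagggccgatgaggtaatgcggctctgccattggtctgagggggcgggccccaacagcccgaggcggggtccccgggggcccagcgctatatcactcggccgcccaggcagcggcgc
ADAM10: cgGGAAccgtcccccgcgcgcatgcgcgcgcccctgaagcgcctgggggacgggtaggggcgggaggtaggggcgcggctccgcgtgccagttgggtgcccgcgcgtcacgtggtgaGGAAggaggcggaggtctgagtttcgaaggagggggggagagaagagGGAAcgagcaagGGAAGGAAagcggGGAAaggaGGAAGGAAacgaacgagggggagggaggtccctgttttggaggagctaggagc
MMP15: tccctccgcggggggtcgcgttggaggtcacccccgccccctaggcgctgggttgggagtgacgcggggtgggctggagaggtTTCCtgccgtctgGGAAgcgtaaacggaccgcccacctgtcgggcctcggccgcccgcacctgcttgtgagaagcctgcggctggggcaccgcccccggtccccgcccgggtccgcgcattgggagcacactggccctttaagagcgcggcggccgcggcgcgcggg

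The GGAA core was found 1 time before TIMP3, 8 times before ADAM10 and 2 times before MMP15, counting both strands and overlapping sites. It was found 4 times each before MMP14 and TIMP1, whose values were not lower throughout. The motif is short, and 92.7% of the 35116 RefSeq promoters of this length held at least 1 copy, with a median of 3. Neither the longer ETS core CCGGAA, present in 14.5% of promoters, nor the AP-1 motif TGAGTCA, present in 4.20%, occurred on either strand in these 5 windows. The table of promoters used here covered 5 of the 10 genes, and a match describes the letters only.

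ETV1 itself stood at 9.80 FPKM with ETV1-sh2 and 54.6 FPKM with ETV1-sh1 in Colo800, against 180.3 FPKM with Scrambled, and at 3.46 and 34.6 FPKM in A375, against 82.8 FPKM. The FPKM values summed to between 589256 and 710498 per library and carry no absolute depth. From the steps between low values, relative to the A375 Scrambled library, depth was 0.768 to 0.859 in the Colo800 libraries, 2.10 in A375 ETV1-sh2 and 1.43 in A375 ETV1-sh1. Each ratio is the most common one, held by only 6.53% to 9.14% of the low genes compared, and is a rough estimate. The melanocyte lineage factor SOX10 was at 353 to 712 FPKM in every library. DCT and TYR, pigment enzymes, were at 70.8 to 125 FPKM and 14.8 to 84.9 FPKM in Colo800, and at most 0.0657 and 0.0758 FPKM in A375, and MLANA was at most 1.85 FPKM in every library. Markers of fibroblasts, cells that make MMPs and TIMPs, summed to 18.7 to 77.5 FPKM over 8 genes with the ETV1 hairpins. With Scrambled they summed to 15.8 to 58.9 FPKM. Most of the sum in Colo800 was FAP, at 36.5 to 47.3 FPKM. In A375 the largest was LUM, at 7.58 to 13.96 FPKM. COL1A1 and PDGFRB reached 12.1 and 7.65 FPKM in Colo800 ETV1-sh2, and COL3A1 was at most 0.106 FPKM. The 6 leukocyte markers summed to 76.9 to 306 FPKM with the ETV1 hairpins and 87.8 to 104 FPKM with Scrambled, nearly all of it CD68, which was at 306 FPKM in A375 ETV1-sh2 against 87.5 FPKM in A375 Scrambled; the others were at most 0.266 FPKM. The 4 endothelial markers found summed to 1.00 to 6.58 FPKM with the ETV1 hairpins and 1.88 to 2.26 FPKM with Scrambled, with TIE1 at 0.568 to 5.597 FPKM, TEK at most 0.955 FPKM and CDH5 at most 0.0225 FPKM. The 6 keratinocyte markers summed to 6.60 to 13.4 FPKM with the ETV1 hairpins and 5.43 to 21.6 FPKM with Scrambled. The 7 melanocyte markers found summed to 402 to 896 FPKM with the ETV1 hairpins and 688 to 1297 FPKM with Scrambled. Of the 6 that passed the filter, S100B alone fell with ETV1-sh2 (-1.06, limma adjusted p = 0.0194), where 9.0% of all genes tested fell. S100B alone also fell with ETV1-sh1 (-1.70, adjusted p = 0.0197), where 1.51% of all genes did. None of the 6 rose, where 7.73% and 0.773% of all genes did. The part of S100B in the results below was not tested.

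The comparison of each ETV1 hairpin with Scrambled asks which of these genes differ between those libraries. If the treatment field holds, the drug differs between them too. TIMP3 showed the largest change of the 10 genes, to 219 FPKM with ETV1-sh2 and 183 FPKM with ETV1-sh1 in Colo800, against 844 FPKM with Scrambled. In A375 it was at 21.3 FPKM and 23.8 FPKM, against 424 FPKM. Each ETV1 hairpin library thus lay below both Scrambled libraries. The share of all genes separated in this way, here and for MMP16 and FURIN below, was not counted. The hairpins left 26.0% and 21.7% of the Scrambled value in Colo800 and 5.02% and 5.61% in A375.

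In a limma fit over all genes with the cell line and 3 hairpin levels as terms, TIMP3 fell by 3.10 on the log2(FPKM + 1) scale with ETV1-sh2 (SE 0.512, adjusted p = 0.0178) and fell by 3.15 with ETV1-sh1 (SE 0.512, adjusted p = 0.0431). The log2 gap between the lines in TIMP3 was uneven, at 3.31 with ETV1-sh2, 2.89 with ETV1-sh1 and 0.99 with Scrambled. In limma the spread of a gene is drawn toward a trend over all genes tested, so both p-values rest in part on other genes. Both fitted changes rest on the 2 lines as the replication, with 2 residual degrees of freedom. Without the A375 Scrambled library they were -2.04 and -2.10, and the second no longer passed (limma adjusted p = 0.0898). The hairpins did not differ detectably for TIMP3, with ETV1-sh2 minus ETV1-sh1 at 0.053 (SE 0.512). The change was smaller in size in Colo800, with log2 differences of -1.94 and -2.20, than in A375, with -4.25 and -4.10. That difference between the lines was 2.11 (SE 0.452) and did not pass after adjustment over all genes, where no gene did (limma, unadjusted p = 0.0045, adjusted p = 1.00, 0 of 11129 genes or 0% called, with 66 at an unadjusted p under 0.05).

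**Figure D1:**
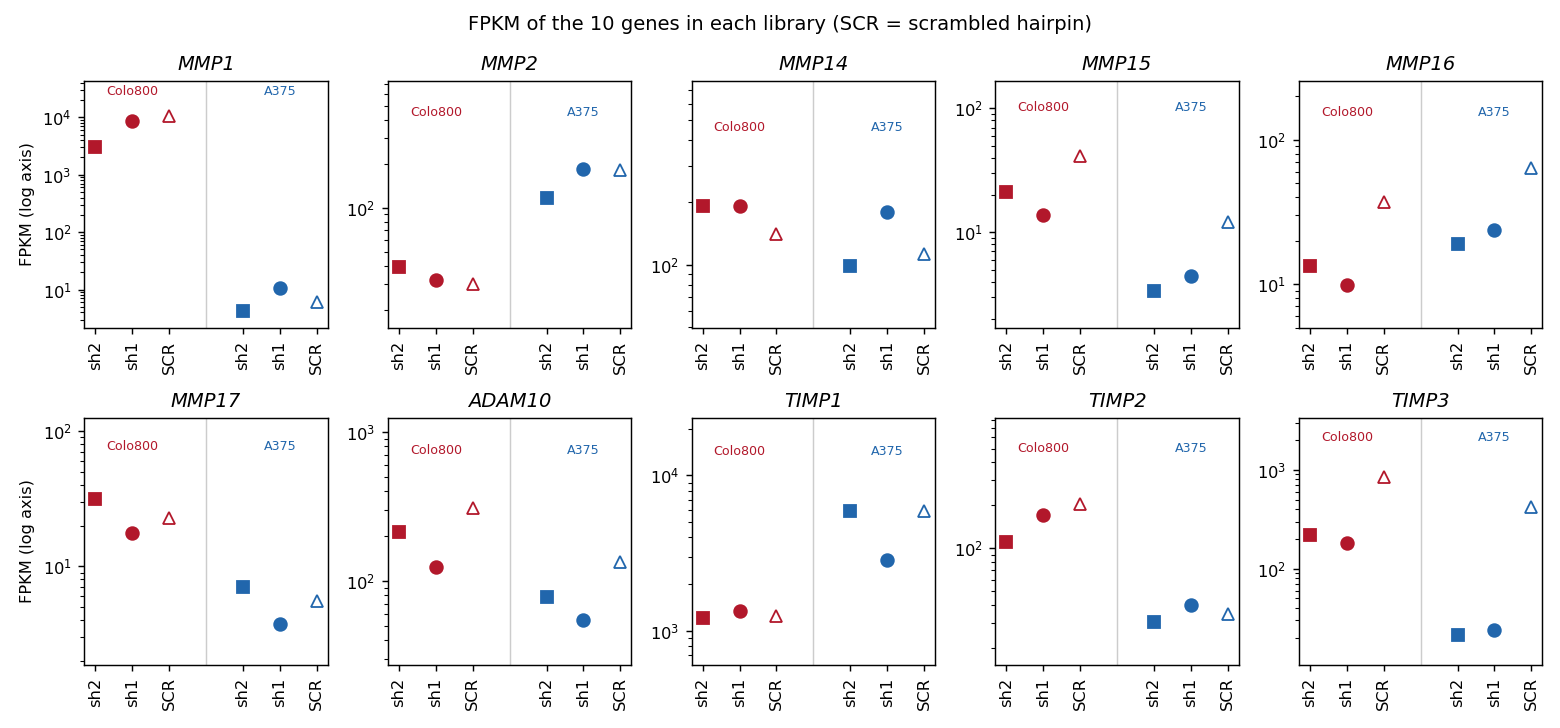
FPKM (log axis, with a scale of its own for each gene) of the 10 genes in each of the 6 libraries, with Colo800 on the left of each panel and A375 on the right; squares are ETV1-sh2, circles ETV1-sh1 and open triangles Scrambled (SCR), 1 library a point. TIMP3, MMP15, MMP16 and ADAM10 lie below the Scrambled point of their line with both hairpins, and MMP1 lies at 3017 to 10733 FPKM in Colo800 and at 4.29 to 10.7 FPKM in A375.

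TIMP3 lies within the span of SYN3 in the RefSeq annotation and TIMP1 within that of SYN1, and the sources used here do not say whether counting used strand. SYN3 was at 12.7 and 12.9 FPKM with ETV1-sh2 and ETV1-sh1 in Colo800, against 8.94 FPKM with Scrambled, and at 2.02 and 2.85 FPKM in A375, against 3.64 FPKM. Its values were higher with both hairpins in Colo800, where those of TIMP3 were lower, and lower with both in A375, as were those of TIMP3. The part of reads shared with SYN3 was not tested. SYN1 was at most 1.82 FPKM in any library. MMP1 overlaps the transcribed pseudogene WTAPP1, TIMP2 the protein-coding gene CEP295NL, and ADAM10 several pseudogenes. None of these has an FPKM value here, and reads shared with them were not tested.

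MMP16, a membrane-type metalloproteinase, changed by a like amount with both hairpins and in both lines. It was at 13.4 FPKM with ETV1-sh2 and 9.94 FPKM with ETV1-sh1 in Colo800, against 37.1 FPKM with Scrambled, and at 19.0 and 23.8 FPKM in A375, against 63.9 FPKM. All 4 hairpin libraries lay below both Scrambled libraries. MMP16 fell by 1.55 with ETV1-sh2 (SE 0.215, adjusted p = 0.0129) and fell by 1.59 with ETV1-sh1 (SE 0.215, adjusted p = 0.0297) in limma. ETV1-sh2 minus ETV1-sh1 was 0.040 (SE 0.215), and the difference of the hairpin effect between lines was -0.060 (SE 0.542).

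MMP15, a close relative of MMP14, was at 21.3 and 13.8 FPKM with ETV1-sh2 and ETV1-sh1 in Colo800, against 41.5 FPKM with Scrambled. In A375 it was at 3.37 and 4.398 FPKM, against 11.99 FPKM. Within each line the hairpin libraries were lower, but the Colo800 hairpin libraries lay above the A375 Scrambled library. The decrease passed with ETV1-sh2 (log2 change -1.25, SE 0.252, limma adjusted p = 0.026) and not with ETV1-sh1 (-1.39, SE 0.252, adjusted p = 0.0524), while ETV1-sh2 minus ETV1-sh1 was 0.14 (SE 0.252).

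ADAM10 stood at 213 FPKM with ETV1-sh2 and 124 FPKM with ETV1-sh1 in Colo800, against 311 FPKM with Scrambled, and at 77.5 and 54.9 FPKM in A375, against 134 FPKM. The ETV1-sh1 value was the lowest in each line. ADAM10 fell by 0.66 with ETV1-sh2 (SE 0.159, limma adjusted p = 0.039) and fell by 1.29 with ETV1-sh1 (SE 0.159, adjusted p = 0.0263). It was higher with ETV1-sh2 than with ETV1-sh1 by 0.63 (SE 0.159, adjusted p = 0.0497), close to the threshold. ETV1 RNA had the opposite order of the hairpins, with ETV1-sh2 minus ETV1-sh1 at -2.68 (SE 0.204, limma adjusted p = 0.00553).

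The 10 genes can be set beside the table as a whole. With ETV1-sh2 4 of the 10 fell (MMP15, MMP16, ADAM10 and TIMP3), where 9.0% of all genes tested fell, and none rose, where 7.73% of all genes rose. With ETV1-sh1 3 of the 10 fell (MMP16, ADAM10 and TIMP3), where 1.51% of all genes fell, and none rose, where 0.773% did. Their median log2 change was -0.59 with ETV1-sh2 and -0.43 with ETV1-sh1, beside 0.046 and 0.0017 over all genes tested. These genes were chosen with results of these data known, and both comparisons use the same Scrambled libraries.

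Within a line, with no test, MMP16 and TIMP3 were at least 2-fold lower with both hairpins in Colo800, as were 0.908% of all genes, and none of the 10 was 2-fold higher, as were 0.899%. In A375 MMP15, MMP16 and TIMP3 were at least 2-fold lower, as were 1.63% of all genes, and none was higher, as were 0.952%. MMP15, MMP16, ADAM10 and TIMP3 were lower in all 4 hairpin libraries than in the Scrambled library of the same line, as were 16.8% of all genes, and none of the 10 was higher in all 4, as were 19.7%. With all 4 hairpin libraries set against the 2 Scrambled ones and the cell line as a term, no gene of the table passed in limma (0%; smallest adjusted p = 0.135, with 1204 genes at an unadjusted p under 0.05, 4 of the 10 among them). In that fit a gap between the hairpins counts as spread. There MMP16 was at -1.57 (SE 0.222, adjusted p = 0.263) and TIMP3 at -3.12 (SE 0.453, adjusted p = 0.263).

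With no filter on low values none of the 10 genes passed with either hairpin, nor did any gene of the table (limma; 3951 genes with ETV1-sh2 and 2271 with ETV1-sh1 had an unadjusted p under 0.05). Without the A375 or the Colo800 Scrambled library TIMP3 alone remained with ETV1-sh2, and with ETV1-sh1 the counts were 0 and 1. Without a variance trend, TIMP3 with ETV1-sh1 (limma adjusted p = 0.0639) and ADAM10 with ETV1-sh2 (adjusted p = 0.0596) no longer passed.

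**Figure D2:**
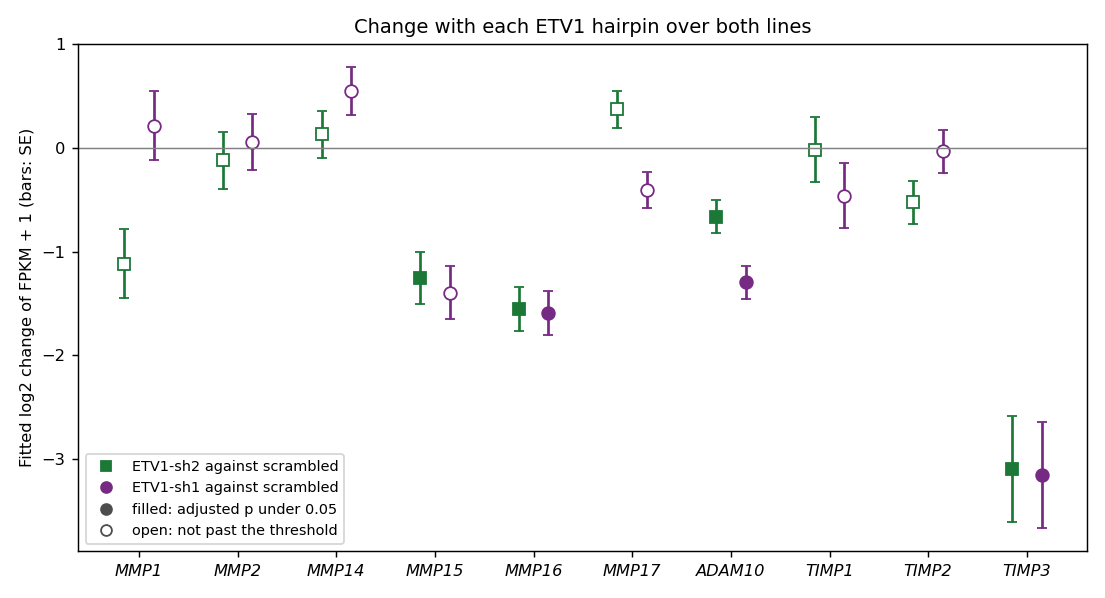
Fitted log2 change of FPKM + 1 for each of the 10 genes with ETV1-sh2 (squares) and ETV1-sh1 (circles) against Scrambled, over both lines, with the standard error as bars; filled points have an adjusted p under 0.05. TIMP3 lies near -3 with both hairpins, MMP16 near -1.6 with both, and MMP1 and MMP17 lie on opposite sides of 0.

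MMP1, the collagenase, was at 3017 FPKM with ETV1-sh2 and 8583 FPKM with ETV1-sh1 in Colo800, against 10733 FPKM with Scrambled. In A375 it was at 4.29 and 10.7 FPKM, against 5.97 FPKM. The ETV1-sh2 value was the lowest in each line, and the ETV1-sh1 value lay below Scrambled in Colo800 and above it in A375. Against Scrambled the log2 changes were -1.11 with ETV1-sh2 (SE 0.330, limma adjusted p = 0.0661) and 0.21 with ETV1-sh1 (SE 0.330, adjusted p = 0.763), neither past the threshold. MMP1 was lower with ETV1-sh2 than with ETV1-sh1 (-1.33, SE 0.330, limma adjusted p = 0.0476).

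MMP17, the lipid-anchored enzyme, was at 31.4 FPKM with ETV1-sh2 and 17.6 FPKM with ETV1-sh1 in Colo800, against 22.8 FPKM with Scrambled, and at 6.999 and 3.75 FPKM in A375, against 5.51 FPKM. In each line the Scrambled value lay between the hairpins. Neither hairpin passed against Scrambled, at 0.37 and -0.40 (SE 0.176 each, limma adjusted p = 0.186 and 0.285), but ETV1-sh2 was higher than ETV1-sh1 by 0.77 (SE 0.176, adjusted p = 0.0385). Between the hairpins 1 of the 10 genes was thus lower with ETV1-sh2 (MMP1), where 6.91% of all genes were, and 2 were higher (MMP17 and ADAM10), where 6.82% were. With any single library left out neither MMP17 nor ADAM10 passed, and MMP1 did not pass without any 1 of A375 ETV1-sh1, Colo800 ETV1-sh1 or Colo800 ETV1-sh2.

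For MMP2, MMP14, TIMP1 and TIMP2 no hairpin comparison passed. MMP14 was at 193 and 192 FPKM with ETV1-sh2 and ETV1-sh1 in Colo800, against 141 FPKM with Scrambled, and at 99.2 and 179 FPKM in A375, against 113 FPKM. Its log2 change was 0.13 with ETV1-sh2 and 0.55 with ETV1-sh1 (SE 0.230 each). The A375 ETV1-sh2 library was the exception to values above Scrambled.

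MMP2 was at 39.4 and 31.7 FPKM in Colo800, against 29.9 FPKM, and at 117 and 184 FPKM in A375, against 181 FPKM, with fitted changes of -0.12 and 0.055 (SE 0.272 each). TIMP2, the partner of MMP14 in MMP2 activation, was at 111 and 171 FPKM in Colo800, against 206 FPKM, and at 30.6 and 39.9 FPKM in A375, against 34.5 FPKM. Its change was -0.52 with ETV1-sh2 (SE 0.208, limma adjusted p = 0.129) and -0.032 with ETV1-sh1. In both genes the A375 ETV1-sh1 library lay above the A375 Scrambled one.

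TIMP1 was at 1217 and 1355 FPKM in Colo800 with ETV1-sh2 and ETV1-sh1, against 1248 FPKM with Scrambled, and at 5869 and 2852 FPKM in A375, against 5868 FPKM. The A375 ETV1-sh1 library was at 48.6% of its Scrambled value, and the other 3 hairpin libraries lay at 97.5% to 109%. The fitted changes were -0.018 and -0.46 (SE 0.311 each, limma adjusted p = 0.973 and 0.474).

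Summed over the 3 TIMPs, the FPKM values came to 1548 with ETV1-sh2 and 1709 with ETV1-sh1 in Colo800, against 2298 with Scrambled, and to 5921 and 2915 in A375, against 6327. TIMP3 took 14.2% and 10.7% of that sum in Colo800, against 36.7% with Scrambled, and 0.359% and 0.817% in A375, against 6.70%. TIMP1 was the largest part in every library, from 54.3% in Colo800 Scrambled to 99.1% in A375 ETV1-sh2. These are shares of RNA per length and say nothing of protein.

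**Figure D3:**
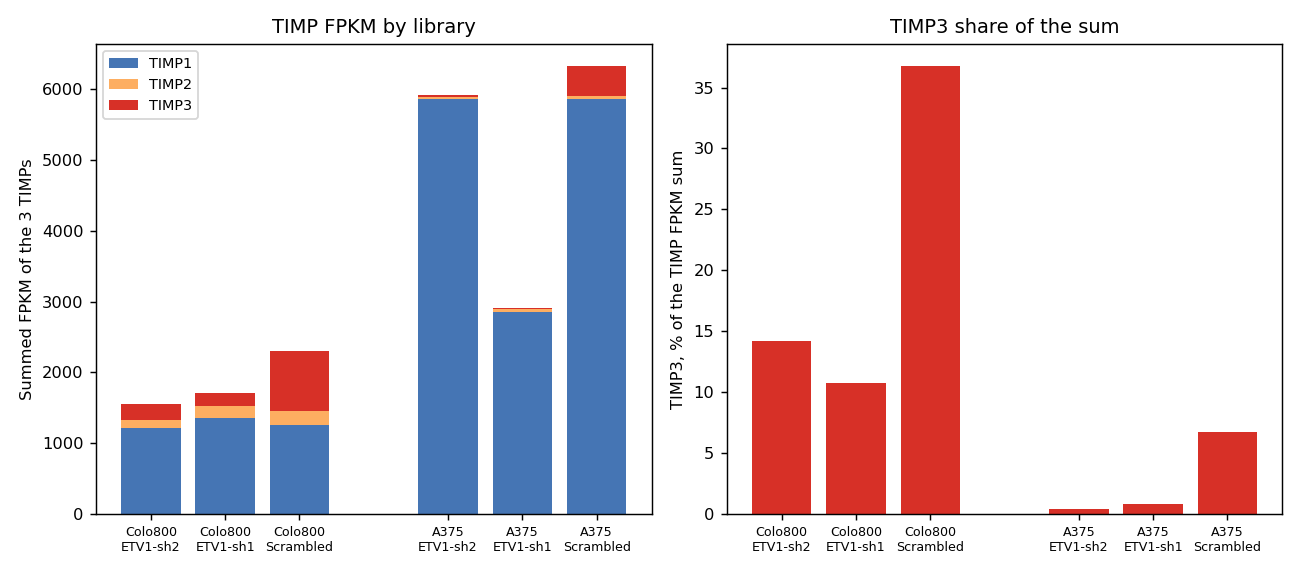
Left, FPKM of TIMP1, TIMP2 and TIMP3 stacked for each of the 6 libraries; right, TIMP3 as a percentage of that sum, 1 library a bar. TIMP3 is 36.7% of the sum in Colo800 Scrambled and 6.70% in A375 Scrambled, and at most 14.2% and 0.817% with the ETV1 hairpins.

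Between the lines 9 of the 10 genes differed. Colo800 was set against A375 in the same limma fit, with the hairpin as a term. Of the 10 genes 6 were higher in Colo800 (MMP1, MMP15, MMP17, ADAM10, TIMP2 and TIMP3), where 31.8% of all genes tested were, and 3 were lower (MMP2, MMP16 and TIMP1), where 25.3% were. MMP14 did not pass (0.46, SE 0.188, adjusted p = 0.078). Line differences were thus common throughout the table. The median over the 10 genes was 1.56, beside 0.068 over all genes.

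MMP1 had the widest gap, with a log2 difference of 9.75 (SE 0.270, limma adjusted p = 1.74e-05), and was 703-fold, 800.4-fold and 1797-fold higher in Colo800 with ETV1-sh2, ETV1-sh1 and Scrambled. In Colo800 Scrambled it ranked 2 among all 17468 genes by FPKM, and in A375 Scrambled 8162. MMP1 made up 91.0% to 97.5% of the summed FPKM of the 6 MMPs in Colo800 and 1.57% to 2.64% in A375. No library of one line came near the range of the other.

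TIMP2 was higher in Colo800 by 2.15 (SE 0.170), TIMP3 by 2.396 (SE 0.418), MMP17 by 1.95 (SE 0.144), MMP15 by 1.84 (SE 0.206) and ADAM10 by 1.27 (SE 0.130), with limma adjusted p from 0.000251 to 0.00399. For TIMP3 the gap was 10.3-fold with ETV1-sh2, 7.69-fold with ETV1-sh1 and 1.99-fold with Scrambled. TIMP2, MMP17 and MMP15 did not overlap between the lines. ADAM10 did, at 124 to 311 FPKM in Colo800 and 54.9 to 134 FPKM in A375, as did TIMP3, which spanned 183 to 844 FPKM in Colo800 and 21.3 to 424 FPKM in A375. The share of all genes tested without overlap between the lines was not counted. A lack of overlap, also in MMP1, MMP2 and TIMP1, is thus not shown to be particular to these genes.

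On the other side, MMP2 (-2.20, SE 0.222, limma adjusted p = 0.000583) and TIMP1 (-1.86, SE 0.254, adjusted p = 0.00161) were lower in Colo800, with no overlap between the lines. TIMP1 ranked 3 to 14 among all genes in the A375 libraries and 43 to 55 in the Colo800 libraries. MMP16 was lower (-0.81, SE 0.175, limma adjusted p = 0.00896), with ranges that overlap. Of these line calls, MMP16 (limma adjusted p = 0.0623), TIMP1 (adjusted p = 0.0643) and TIMP3 (adjusted p = 0.0763) ended with no filter on low values. Without the hairpin term MMP16 (adjusted p = 0.310), TIMP3 (adjusted p = 0.142) and ADAM10 (adjusted p = 0.0516) did. The sum of the 3 TIMPs was 0.193 to 0.467 times the sum of the 6 MMPs in Colo800 and 7.18 to 23.7 times in A375. The low ratio in Colo800 came from MMP1. Without MMP1 the MMPs summed to 265 to 298 FPKM in Colo800 and 245 to 395 FPKM in A375. The TIMP sums of 1548 to 2298 FPKM and 2915 to 6327 FPKM were then the larger in both lines.

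In order of level, Colo800 Scrambled had MMP1 at the top, then TIMP1, TIMP3, ADAM10, TIMP2, MMP14, MMP15, MMP16, MMP2 and MMP17. A375 Scrambled had TIMP1, TIMP3, MMP2, ADAM10, MMP14, MMP16, TIMP2, MMP15, MMP1 and MMP17. With 1 library for each line and hairpin, neighbours in these orders have no spread of their own.

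**Figure D4:**
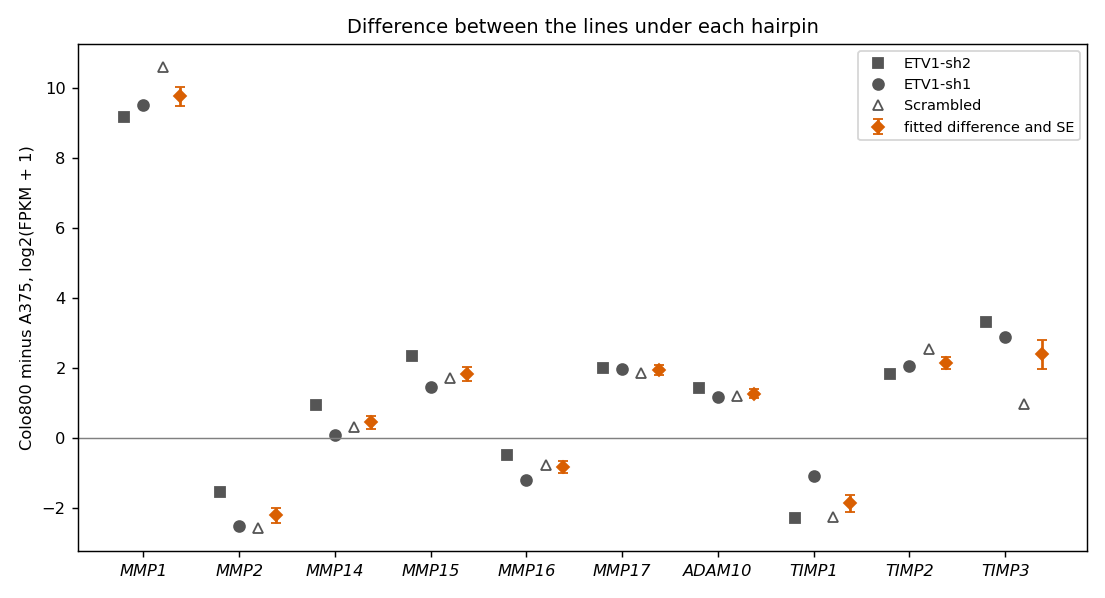
Colo800 minus A375 in log2(FPKM + 1) for each of the 10 genes under ETV1-sh2 (squares), ETV1-sh1 (circles) and Scrambled (open triangles), with the fitted difference and its standard error (diamonds). MMP1 lies between 9.16 and 10.6, and TIMP3 at 3.31 and 2.89 with the hairpins and 0.99 with Scrambled.

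For the 3 genes of the set with the largest mean change from Scrambled, the genes with the closest 4 log2 differences were sought among all genes tested, as a description over 4 differences that share 2 Scrambled libraries. No gene lay near TIMP3: the closest was RRM2, a ribonucleotide reductase subunit, at a root mean square difference of 1.20, followed by HMMR at 1.26 and FLT1 at 1.30. MMP16 had closer neighbours in CCDC59 (0.167), ARFIP1 (0.277) and MMP15 (0.288). MMP15 lay closest to ICAM1, a cell adhesion molecule (0.170), ECHDC1 (0.195) and OXSR1 (0.218).

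Other genes of the same families were read from lists. Their counts stand beside the shares of all genes given above: 9.0% lower and 7.73% higher with ETV1-sh2, 1.51% and 0.773% with ETV1-sh1, 6.91% and 6.82% between hairpins, and 25.3% and 31.8% in Colo800 against A375. Of 17 further MMPs found, 6 passed the filter, and with ETV1-sh2 MMP8, a neutrophil collagenase, fell (-1.35, SE 0.198, limma adjusted p = 0.0143) while none rose; with ETV1-sh1 none passed in either direction. MMP8 and the stromelysin MMP3 were lower with ETV1-sh2 than with ETV1-sh1 (-1.37 and -2.002, limma adjusted p = 0.0124 and 0.0137) and MMP19 was higher (1.05, adjusted p = 0.0487). Between lines MMP3 (2.87) and MMP8 (3.81) were higher in Colo800 and MMP19 was lower (-3.56). In the RefSeq table MMP8, MMP10, MMP1 and MMP3 follow each other in that order among the MMP genes of their chromosome arm.

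Of 16 further ADAM genes 7 passed the filter. With ETV1-sh2 ADAM15 (-0.74, limma adjusted p = 0.0388) and ADAM23 (-1.61, adjusted p = 0.0194) fell, and none rose, and with ETV1-sh1 none passed. ADAM17, the sheddase closest to ADAM10, had values of 44.7 and 35.8 FPKM in Colo800 with ETV1-sh2 and ETV1-sh1, against 35.2 FPKM with Scrambled, and 17.7 and 19.9 FPKM in A375, against 20.7 FPKM. Between lines ADAM12 (-1.96), ADAM15 (-0.70), ADAM19 (-2.997), ADAM22 (-2.08) and ADAM23 (-0.70) were lower in Colo800, and ADAM9 (0.58) and ADAM17 (0.95) were higher.

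Of 19 ADAMTS genes, secreted relatives that cut proteoglycans and procollagens, 7 passed the filter. ADAMTS4 rose with ETV1-sh2 (1.30, limma adjusted p = 0.0449) and was higher than with ETV1-sh1 (1.34, adjusted p = 0.0466), and no other passed with a hairpin. ADAMTS1 (3.61), ADAMTS9 (3.18) and ADAMTS15 (0.91) were higher in Colo800, and ADAMTS12 (-3.71), ADAMTS7 (-2.40), ADAMTS13 (-1.19) and ADAMTS4 (-0.78) were lower.

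Among 6 tetraspanins of the family that binds ADAM10, all of which passed the filter, TSPAN14 fell with ETV1-sh2 (-1.01, limma adjusted p = 0.0208) and TSPAN17 rose (0.79, adjusted p = 0.0303). None passed with ETV1-sh1, the hairpin with the lower ADAM10. TSPAN15 (1.09) and TSPAN17 (0.88) were higher with ETV1-sh2 than with ETV1-sh1. TSPAN14 (1.33) and TSPAN33 (2.11) were higher in Colo800, and TSPAN5 (-2.30) and TSPAN10 (-1.61) lower.

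Of 8 activators 7 passed the filter. FURIN, the convertase that removes the propeptide of membrane-type MMPs and ADAM10, was at 173 and 177 FPKM with ETV1-sh2 and ETV1-sh1 in Colo800, against 37.6 FPKM with Scrambled, and at 106 and 97.4 FPKM in A375, against 30.4 FPKM. All 4 hairpin libraries lay above both Scrambled ones, and FURIN rose with ETV1-sh2 (1.98, SE 0.188, limma adjusted p = 0.00806) and with ETV1-sh1 (1.93, SE 0.188, adjusted p = 0.0197). The plasminogen activator PLAT fell with ETV1-sh2 (-3.43). With ETV1-sh1 it was at -1.24 and did not pass (limma adjusted p = 0.0822). PLAT was lower with ETV1-sh2 than with ETV1-sh1 (-2.19). FURIN (0.62), PLAT (2.47), PCSK5 (3.07), PCSK6 (3.58) and BSG (0.63) were higher in Colo800, and PLAUR (-2.35) and PCSK7 (-1.09) lower. Among 4 other inhibitors, RECK and A2M passed the filter neither passed with a hairpin, and TIMP4 was at most 0.0522 FPKM. A2M was higher in Colo800 (1.44).

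TIMP binding partners gave no call with a hairpin among 4 tested genes. Between lines CD63 (0.78), which binds TIMP1, and EFEMP1 (2.201), which binds TIMP3, were higher in Colo800, KDR (-1.38) was lower, and the endocytic receptor LRP1 was at 1.04 to 1.94 FPKM. Of 12 AP-1 and ETS factors, ETV1 fell with both hairpins. ETV5 fell (-1.54, limma adjusted p = 0.0294) and JUND rose (1.14, adjusted p = 0.0461) with ETV1-sh1, where with ETV1-sh2 ETV5 was at -0.66 (adjusted p = 0.0752), and ETV5 was higher (0.88) and ETS1 lower (-1.24) with ETV1-sh2 than with ETV1-sh1. ETV1 (1.01), ETV5 (1.13), ETS2 (0.87), FOS (1.37) and FOSB (1.07) were higher in Colo800, and JUNB (-0.63) and JUND (-1.98) lower.

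Substrates of these proteases moved in both directions. Of 16 matrix genes 12 passed the filter, and with ETV1-sh2 5 fell, where 9.0% of all genes did, and 1 rose, where 7.73% did. Those that fell were the laminin chains LAMA4 (-1.12) and LAMC1 (-0.66), the basement membrane protein NID1 (-0.74), SPARC (-0.92) and COL5A1 (-1.11), while COL1A1 rose (1.88). With ETV1-sh1 LAMC1 fell (-1.66, limma adjusted p = 0.0197), where 1.51% of all genes did. The fibroblast markers LUM (0.92) and PDGFRB (1.25) rose with COL1A1 under ETV1-sh2, at most 13.96 FPKM each, and their part in the results above was not tested. Between hairpins TNC (-1.38), VCAN (-1.61), SPARC (-1.05), NID1 (-0.89) and COL5A1 (-1.48) were lower with ETV1-sh2, and COL1A1 (1.49) and LAMC1 (1.00) higher, beside 6.91% and 6.82% of all genes. FN1 had the widest line gap of the list, 6.67 higher in Colo800, and COL4A1 (0.99), LAMA4 (1.10), NID1 (1.23), SPARC (0.54), TNC (1.33) and VCAN (2.24) were higher too, with COL5A1 lower (-1.19), beside 31.8% of all genes higher and 25.3% lower.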

How the data were processed

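The values are FPKM made by the authors and deposited as 1 table, with STAR 2.4, Cufflinks 2.2.1 and Cuffnorm on hg19 named in the submitters' processing notes. The sources used here do not give the annotation, filters or Cuffnorm scaling, and the depth is known only relatively. Columns were matched to samples by title.

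FPKM + 1 was taken to log2, and the 11129 genes averaging 1 FPKM or more in the 6 libraries were fitted with limma 3.58.1 in R 4.3.3 (lmFit, then eBayes with a variance trend), with Benjamini-Hochberg adjustment over all of them and a threshold of 0.05. Fold changes on this scale understate those of low genes. Each hairpin, the hairpins against each other and the lines came from a fit with cell line and 3 hairpin levels; the line difference of the hairpin effect from a mean per line and knockdown state. Each of the 6 libraries is a different line and hairpin, and none repeats another. In the fit with cell line and 3 hairpin levels, the spread that a gene itself shows is thus how unlike the lines respond to a hairpin. For the line difference of the hairpin effect it is the gap between the hairpins within a line. Technical spread is part of both and cannot be told apart, and spread between repeat cultures was not measured. In the main fits eBayes draws the spread of a gene toward a trend over all genes tested. A p-value thus rests in part on the spread of other genes, not on that of its own gene alone. The genes and lists were chosen with earlier results of these data known. Named beside the 10 genes were the list genes past the threshold in a fit, at most 3 others per list with the largest mean FPKM, markers, ETV1 and the 3 closest genes by pattern. Of 136 list entries 133 were in the table. Promoters are from RefSeq (GRCh38.p14); coordinates of the hg19 files were not used. Alternatives were another pseudocount (0.1), no filter, a median shift, no variance trend, no line or hairpin term and each library left out.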

Additional observations from a re-analysis of the deposited data

How the results depend on the processing

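The counts among the 10 genes held with a pseudocount of 0.1 and, apart from those between hairpins, with a median shift. Without the variance trend 3 fell with ETV1-sh2 (ADAM10 lost) and 2 with ETV1-sh1 (TIMP3 lost). With no filter on low values the counts that fell were 0 with ETV1-sh2 and 0 with ETV1-sh1, those between hairpins 0 lower and 0 higher, and in Colo800 1 gene was lower (MMP16 and TIMP1 lost) and 5 higher (TIMP3 lost). With no replicate block (no cell line term) the counts were again 0 for each of the hairpin comparisons; for Colo800 against A375, without the hairpin term, 2 were lower (MMP16 lost) and 4 higher (ADAM10 and TIMP3 lost). Between hairpins 1 gene was higher with a median shift, and without the variance trend 0 were lower and 1 higher. The cause was not tested. Cell lines pair the libraries by design.

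With each library left out in turn (1 residual degree of freedom for single hairpins), 1 to 4 genes fell with ETV1-sh2 and 0 to 4 with ETV1-sh1, 0 to 1 were lower and 0 to 0 higher between hairpins, and 3 lower and 6 higher between lines. Without the Colo800 ETV1-sh1 library MMP16 alone passed with ETV1-sh2 and none with ETV1-sh1; without A375 ETV1-sh1 MMP15 and MMP16 passed with ETV1-sh2 and none with ETV1-sh1. Without A375 ETV1-sh2, MMP1, MMP16 and TIMP3 passed with ETV1-sh2, and ADAM10 (adjusted p = 0.165) and MMP15 (0.0686) did not; without Colo800 ETV1-sh2, MMP14 passed between hairpins and MMP1 did not (0.0948). No line difference of a hairpin effect could be fitted without a Scrambled library. Sign changes occurred in genes not past the threshold. Over these fits, ETV1 hairpins against Scrambled ranged from -1.08 to 0.18 for MMP1, -0.30 to 0.23 for MMP2, -0.20 to 0.15 for MMP17, -0.52 to 0.041 for TIMP1 and -0.57 to 0.018 for TIMP2. ETV1-sh1 ranged from -0.41 to 0.84 for MMP1, -0.21 to 0.32 for MMP2, -1.05 to 0.13 for TIMP1 and -0.33 to 0.26 for TIMP2. ETV1-sh2 ranged from -0.61 to 0.37 for MMP2, -0.24 to 0.50 for MMP14 and -0.33 to 0.29 for TIMP1. ETV1-sh2 minus ETV1-sh1 ranged from -0.67 to 0.32 for MMP2, -0.24 to 0.53 for MMP15, -0.24 to 0.32 for MMP16, -0.15 to 1.03 for TIMP1 and -0.63 to 0.74 for TIMP3. The line difference of the hairpin effect ranged from -0.22 to 0.63 for MMP14, -0.10 to 0.49 for MMP15, -0.26 to 0.14 for MMP16, -0.28 to 0.52 for MMP17 and -0.28 to 0.49 for ADAM10.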

Other observations

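MMP9, a gelatinase, was at 0.0731 FPKM with ETV1-sh2 and 32.1 FPKM with ETV1-sh1 in A375, against 4.12 FPKM with Scrambled, and at 0.307 and 1.25 FPKM in Colo800, against 0.663 FPKM. In each line ETV1-sh1 was the highest and ETV1-sh2 the lowest, the order that MMP3 also had, at 0.671 and 6.88 FPKM in A375, against 1.09 FPKM, and at 10.5 and 38.2 FPKM in Colo800, against 23.0 FPKM. MMP9 did not pass between the hairpins (-2.86, SE 0.857, limma adjusted p = 0.073).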
